A study of Mus musculus with 18 samples.

Results

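Cadherins and protocadherins, the adhesion molecules that hold neural cells together and sort them from each other, were followed along the rostrocaudal axis of the embryonic mouse neocortex. The genes were taken by name: every array probe whose platform symbol is Cdh or Pcdh followed by a number or by a cluster letter and number. Where a gene had several probes, the probe measured on the largest number of arrays was used. The rule found 46 genes on 51 probes, of 15063 named genes on the array, and 37 of the 46 had enough values to be tested. None of the 37 passed a limma adjusted p of 0.05 between any 2 regions. Cdh10, a type II cadherin, had the lowest unadjusted limma p of the family in rostral against caudal, with a rostral value 1.57-fold the caudal value.

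Classical cadherins join cells through calcium-dependent contacts between like molecules on neighbouring membranes, and their cytoplasmic tails bind catenins that link them to actin. Type I members such as N-cadherin are widespread in the neuroepithelium, whereas type II members are known from patchy, area-specific or layer-specific patterns in the developing cortex. Protocadherins lack the classical catenin-binding tail. The delta protocadherins are encoded by single genes, and the clustered alpha, beta and gamma protocadherins are expressed in differing combinations by single neurons.

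The tissue was neocortex of MF1 mice, an outbred strain, at E13.5 (embryonic day), when the cortical wall holds progenitors and its first neurons. The 9 RNA pools were 3 rostral (R1 to R3), 3 middle (M1 to M3) and 3 caudal (C1 to C3), with no allele or treatment named in the labels. They came from 4 embryos, and no label says which embryo gave which pool, so the p-values reflect how far these pools lay apart, and that spread may be technical. The 18 arrays each set a pool of a region in Cy3 against a pool of another region in Cy5. A pool was hybridised 4 times, 2 times with each dye, and for every pair of regions there were 6 arrays. Because every value is a ratio between pools, neither the level of a gene nor the presence of cortical markers could be checked, only their differences between regions. The tissue is bulk, so fewer cells of a type and less RNA per cell cannot be told apart.

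Values below are pool values on the log2 scale, centred so that the 9 pools of a gene sum to 0, or differences between region means on that scale with the standard error (SE) of the fit. Positive differences mean that the region named first was higher. The labels do not give the direction of the ratio, and Cy5 over Cy3 was taken as likely: of 7 genes known to be graded along this axis, 6 were measured and all 6 had the known sign, from -1.02 for Nr2f1 to 0.80 for Etv1 in rostral against caudal. An array held between 18085 and 20693 values. Over all 18525 features, 0.0648% passed an adjusted p of 0.05 in rostral against caudal, 0% in rostral against middle and 0% in middle against caudal. In the F test for any difference among the 3 regions, 0.0108% passed. The count of cadherins and protocadherins passing was 0 of 37 in each of these tests.

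At an unadjusted limma p under 0.05, which is used here only as a description, rostral against caudal held 4 of the 37 genes, 10.8%, beside 7.9% of all features. Rostral against middle held 1 gene, beside 5.25% of all features, and middle against caudal held 2, beside 4.86%. The F test held 3 genes, beside 6.71%. The pools of the 2 regions did not overlap for 5 genes in rostral against caudal (12.1% of all features), 5 in rostral against middle (12.8%) and 6 in middle against caudal (10.6%). These shares lie near those of all features. By sign, 20 genes were higher and 17 lower in rostral than in caudal cortex, with a median difference of 0.04 beside 0.00 over all features.

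**Figure D1:**
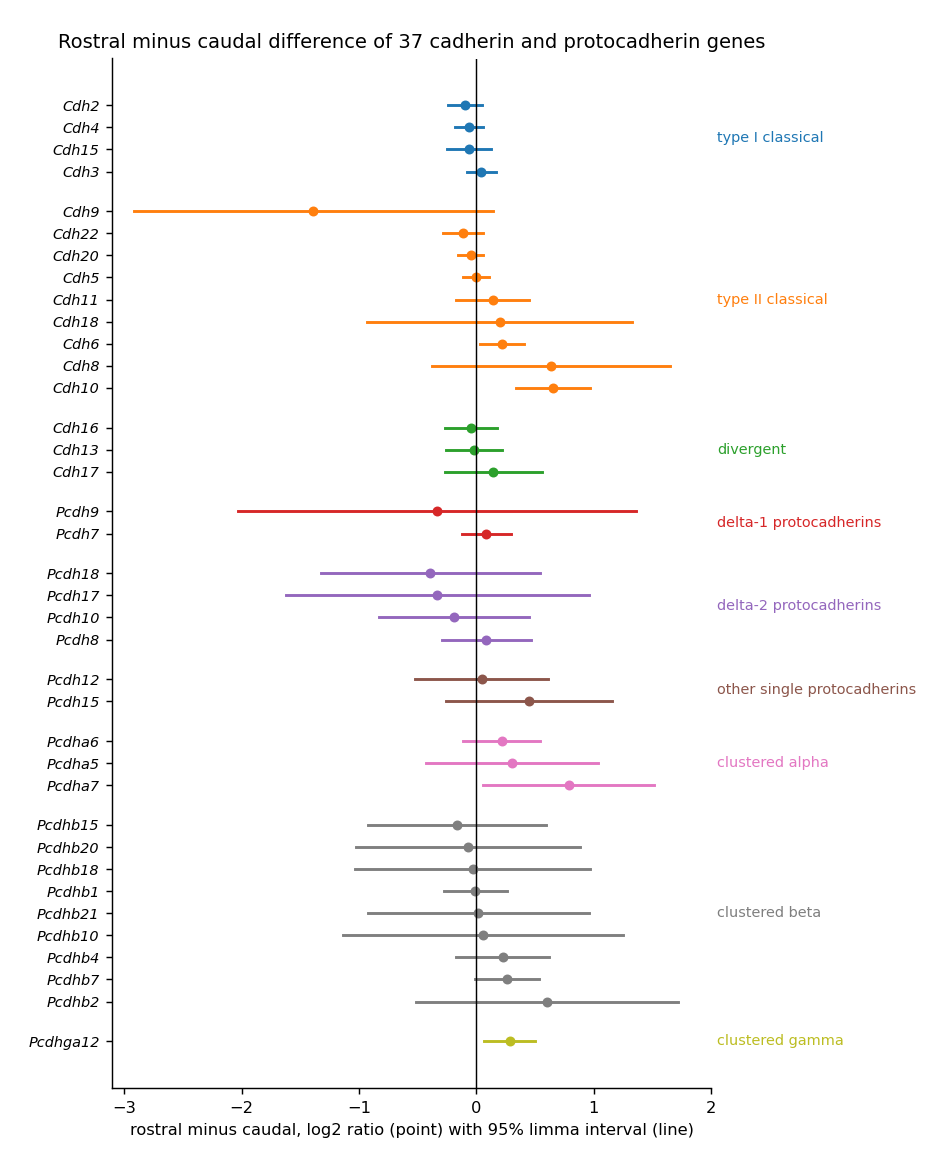
Difference between rostral and caudal cortex for the 37 tested genes by subfamily; points are differences of the means of 3 pools each on the log2 scale and lines are 95% limma intervals. The interval of Cdh10 lies wholly above 0, from 0.34 to 0.96, and the shortest intervals belong to Cdh20, Cdh5, Cdh4 and Cdh3.

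Of 10 type II cadherins on the array 9 were tested, 5 higher and 4 lower in rostral than in caudal cortex, with a median difference of 0.14. Cdh6, Cdh9, Cdh10 and Cdh18 are neighbours in gene order on chromosome 15 of the mouse. From Cdh6 to Cdh18 the reference annotation lists 6 protein-coding genes in a row, these 4 with Cdh12 and Acot10. The bases just upstream of the annotated starts are shown for the 2 genes whose differences are described first, Cdh10 and Cdh6, and a short stretch for Cdh9, because Cdh6 and Cdh9 share a run of letters there. They are from RefSeq, build GRCm38.p6, 5′ to 3′ on the strand of the gene: chr15:18820079-18820328 on the plus strand for Cdh10, chr15:13173676-13173925 on the minus strand for Cdh6 and chr15:16728686-16728745 on the plus strand for Cdh9. Capitals mark the longest run common to the Cdh6 and Cdh9 windows.
Cdh10: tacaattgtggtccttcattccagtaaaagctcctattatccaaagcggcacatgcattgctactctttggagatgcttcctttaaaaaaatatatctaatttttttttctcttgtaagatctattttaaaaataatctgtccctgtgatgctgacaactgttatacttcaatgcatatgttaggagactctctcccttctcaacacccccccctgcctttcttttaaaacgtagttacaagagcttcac
Cdh6: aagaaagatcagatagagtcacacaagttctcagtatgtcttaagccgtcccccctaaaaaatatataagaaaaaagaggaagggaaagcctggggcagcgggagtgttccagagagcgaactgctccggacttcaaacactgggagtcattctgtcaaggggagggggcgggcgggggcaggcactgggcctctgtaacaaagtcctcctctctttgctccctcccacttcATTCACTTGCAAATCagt
Cdh9: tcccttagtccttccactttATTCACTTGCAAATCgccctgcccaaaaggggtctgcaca

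The shared run is 15 bases long and was found in 2 of the 32851 upstream windows of 250 bases in the table, those of Cdh6 and Cdh9. It was picked as the longest run shared by any 2 genes of the family with windows outside chromosome 18. The next longest were of 13 bases. A run picked for its length is rarely met elsewhere, so the count is a description only. The run lies 18 to 4 bases before the start in Cdh6 and 209 to 195 bases before it in Cdh9. The Cdh10 window holds 36.8% G and C, and the Cdh6 window 51.2%. On either strand, 5 short strings were searched: TTGCAAAT, which lies inside the shared run, is in 0.706% of all windows, TAATTA in 4.84%, AGGTCA in 14%, CAGGTG in 17.2% and CCGGAA in 12%. Of the 17 genes of the family with a window in the table (18 windows), Cdh6 and Cdh9 held TTGCAAAT, Cdh18 held AGGTCA and Pcdh15 held CAGGTG, and 0 windows held TAATTA or CCGGAA. The Cdh10 window held none of the 5 strings. A string is a description of these letters and no evidence of a binding site.

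Cdh10, which marks subsets of cortical areas and layers in later development, had the lowest p of the family. Its rostral pools were at 0.19, 0.40 and 0.47 (mean 0.36 ± 0.15 SD, n = 3). Its middle pools were at -0.055, -0.13 and -0.0072 (mean -0.063 ± 0.060 SD, n = 3). Its caudal pools were at -0.19, -0.58 and -0.11 (mean -0.29 ± 0.25 SD, n = 3). All 3 rostral pools were above every middle and caudal pool, whereas middle and caudal pools overlapped. The rostral minus caudal difference was 0.65 ± 0.13 (SE), with a 95% interval of 0.34 to 0.96 (limma unadjusted p = 0.0016, adjusted p = 0.19). By unadjusted p it stood at place 157 of the 18525 features.

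Against the middle region, rostral Cdh10 was 0.42 ± 0.13 (SE) higher (limma unadjusted p = 0.016, adjusted p = 0.85). The middle minus caudal difference was 0.23 ± 0.13 (SE; limma unadjusted p = 0.13, adjusted p = 0.99). On the 6 arrays that set a rostral pool directly against a caudal pool, the ratio favoured the rostral pool on all 6, by 0.36 to 0.95 with the rostral pool in Cy5 and by 0.33 to 0.71 with it in Cy3. On the 6 rostral and middle arrays it was positive 6 times, from 0.22 to 0.81. On the 6 middle and caudal arrays it was positive 5 times, from -0.18 to 0.80. The sign therefore did not turn with the dye in either comparison with the rostral pools. Of 27 tested genes of the family with a ratio on all 6 rostral and caudal arrays, 3 had the same sign on all 6 (Cdh10, Cdh6 and Cdh22, the last with the rostral pool lower), 11.1% beside 9.91% of all features.

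A second Cdh10 probe had a like rostral minus caudal difference with a far larger error. Its rostral minus caudal difference was 0.68 ± 0.48 (SE; limma unadjusted p = 0.20), with rostral pools at 1.02, 0.83 and -0.40 and caudal pools at -0.69, -0.27 and 0.38. Pool R3 was low and pool C3 high on this probe, and the groups overlapped. Its middle pools were at -0.63, -0.65 and 0.42. Middle minus caudal was -0.088 ± 0.48 (SE), opposite in sign to that of the probe used for the gene. On the probe used for the gene the residual spread between arrays was 0.17 (SD), and on this second probe 0.77. The last Cdh10 probe had too few values in some pools to be tested, and its 4 rostral and caudal ratios ran from -2.65 to 1.30.

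**Figure D2:**
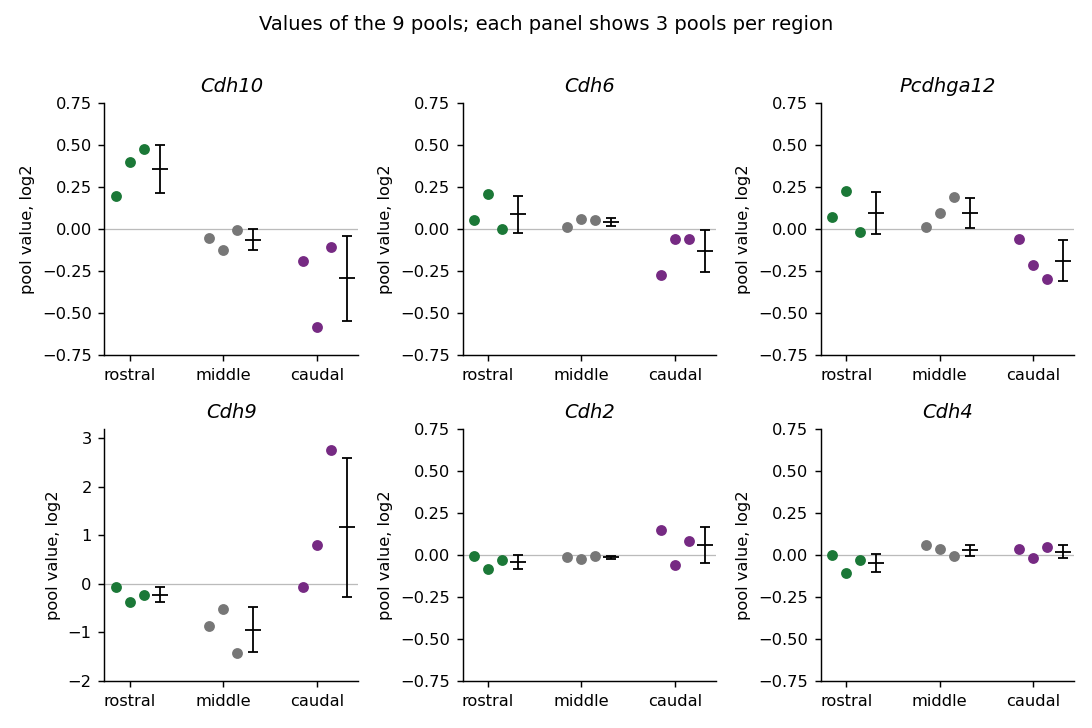
Values of the 9 pools for 6 genes (dots, 3 pools per region, log2 scale) with the mean and SD of each region (bar at the right of the dots). Cdh10 is highest in the rostral pools, Cdh6 and Pcdhga12 are lowest in the caudal pools, Cdh9 spans from -1.43 to 2.75 on its own axis, and Cdh2 and Cdh4 stay between -0.11 and 0.15.

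Cdh6, a type II cadherin known from boundaries between brain regions, showed a smaller difference on 2 probes. On the probe used for the gene the rostral pools were at 0.053, 0.21 and -0.00072, the middle pools between 0.015 and 0.062, and the caudal pools at -0.27, -0.057 and -0.061. Every rostral and every middle pool lay above the 3 caudal pools. Rostral minus caudal was 0.22 ± 0.08 (SE; limma unadjusted p = 0.031, adjusted p = 0.54), a 1.16-fold difference. The direct arrays gave a positive rostral over caudal ratio on 6 of 6, from 0.051 to 0.42.

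The other Cdh6 probe had rostral pools at 0.11, 0.21 and 0.19 and caudal pools at 0.068, -0.27 and -0.078. Its rostral minus caudal difference was 0.26 ± 0.09 (SE; limma unadjusted p = 0.020, adjusted p = 0.47), positive on 6 of 6 direct arrays. The 2 probes placed the middle region differently. On the first, the middle pools were near the rostral ones (rostral minus middle 0.045 ± 0.081, SE). On the second they were near the caudal ones (rostral minus middle 0.24 ± 0.09, SE; limma unadjusted p = 0.029). Without centring the arrays, the difference of the first probe was 0.14 (limma unadjusted p = 0.10).

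**Figure D3:**
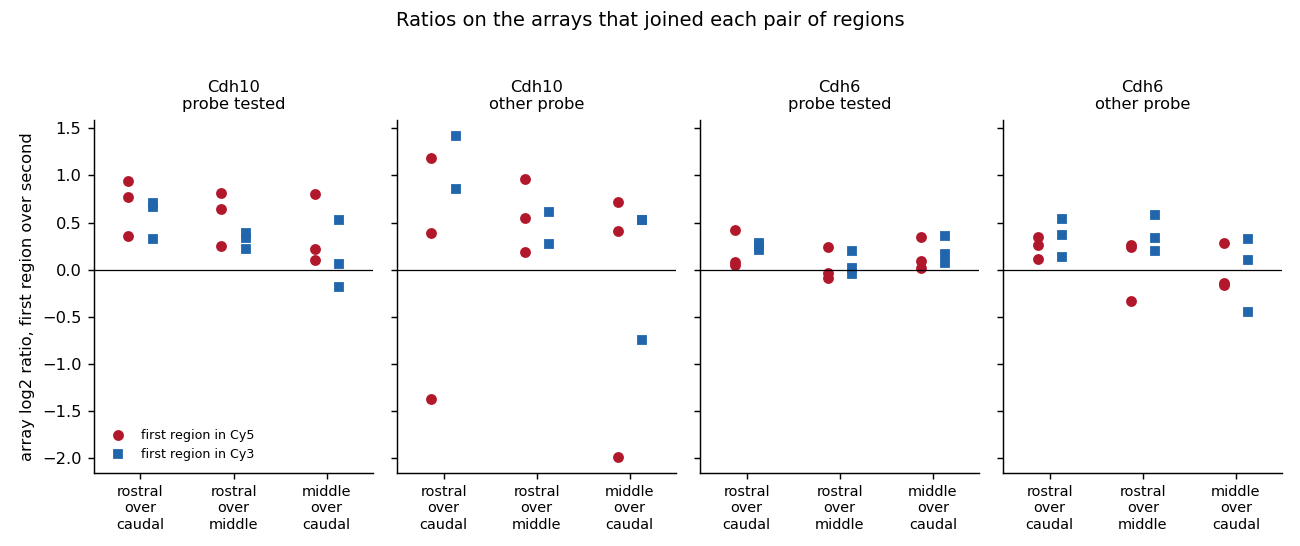
Log2 ratios of the first over the second region on the arrays that joined each pair of regions, for 2 probes each of Cdh10 and Cdh6; red circles have the first region in Cy5 and blue squares in Cy3. The rostral over caudal ratios are above 0 on 6 of 6 arrays for the tested Cdh10 probe and for both Cdh6 probes, and the second Cdh10 probe spans from -1.38 to 1.42.

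Cdh8, a type II cadherin known as a marker of rostral neocortex in later embryos, had the second largest positive difference among the cadherins and a wide error. Its rostral pools were at 0.040, 0.69 and 0.20, its middle pools at 0.48, -0.91 and 0.46 and its caudal pools at -0.91, -0.021 and -0.035. Rostral and caudal pools did not overlap, but the middle pools spanned both. Rostral minus caudal was 0.63 ± 0.43 (SE), with an interval of -0.38 to 1.65 (limma unadjusted p = 0.18), on 15 arrays. Single rostral over caudal ratios ran from -0.87 to 3.09, so a difference of the size of that of Cdh10 could neither be called nor set aside at this precision.

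Cdh9, another type II member of the chromosome 15 group, had the widest pool values of the family. Its rostral pools were at -0.069, -0.37 and -0.23, its middle pools at -0.87, -0.52 and -1.43, and its caudal pools at -0.059, 0.81 and 2.75. The middle pools were the 3 lowest and the caudal pools the 3 highest. Middle minus caudal was -2.11 ± 0.65 (SE; limma unadjusted p = 0.014, adjusted p = 0.73). The value rested on pool C3: without it the difference was -0.78 (limma unadjusted p = 0.53). The residual spread between arrays was 1.99, the largest of the 37 genes.

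The remaining type II members differed little or could not be resolved. Cdh11, a cadherin of mesenchyme and of parts of the brain, gave 0.14 ± 0.13 (SE) for rostral minus caudal, with R3 its highest pool at 0.29. Cdh18 gave 0.20 ± 0.48, with R3 at 0.93 and C1 at 0.70. Cdh20 gave -0.048 ± 0.045. Cdh22 gave -0.11 ± 0.07, and its rostral over caudal ratio was negative on 6 of 6 direct arrays, from -0.27 to -0.057. The pools of Cdh20 lay between -0.073 and 0.076, and its 3 middle pools were all above its 3 rostral pools. Cdh5, the VE-cadherin of endothelial junctions, gave -0.0039 ± 0.048, with all 9 pools between -0.089 and 0.041.

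The type I cadherins were close to equal in the 3 regions. Cdh2, the N-cadherin of apical junctions between radial glia, was at -0.0068, -0.086 and -0.030 in the rostral pools and at 0.15, -0.060 and 0.081 in the caudal pools. Its middle pools lay between -0.023 and -0.0077, and the 3 regions overlapped. Rostral minus caudal was -0.097 ± 0.063 (SE), with a 95% interval of -0.25 to 0.050 (limma unadjusted p = 0.16). Cdh4, the R-cadherin known from forebrain compartments, gave -0.066 ± 0.050, with an interval of -0.18 to 0.053. Cdh3, P-cadherin, gave 0.042 ± 0.051 and Cdh15, the M-cadherin of muscle, -0.065 ± 0.079. For these 4 genes the 95% interval for rostral against caudal lay inside a 1.2-fold difference in either direction. The same held for Cdh5, Cdh13 and Cdh20, in all 7 of the 37 genes (18.9%), beside 28.7% of all features. All 7 are cadherins. Of the protocadherins, only Pcdh7 and Pcdhga12 had intervals reaching less than the limit of 0.26 to either side, 0.21 and 0.22. Intervals of the other protocadherins were too wide to lie inside it whatever the difference.

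Among the divergent cadherins, 3 of 4 were tested. Cdh13, the T-cadherin, which is held by a lipid anchor and lacks a cytoplasmic tail, gave -0.024 ± 0.102 (SE) for rostral minus caudal, with pools between -0.14 and 0.15. Cdh16, known from kidney, gave -0.047 ± 0.096, and Cdh17, known from liver and intestine, 0.14 ± 0.18. For Cdh16 the middle pools were all above the caudal pools, M3 at 0.32 and the other two just under 0, with a middle minus caudal difference of 0.13 ± 0.10. None of the 3 had an unadjusted p under 0.05 in any comparison.

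The delta protocadherins gave no difference past an unadjusted p of 0.05. Pcdh7, a delta-1 member, was the best measured, with pools between -0.17 and 0.17 and a rostral minus caudal difference of 0.083 ± 0.089 (SE). Pcdh9, the other tested delta-1 member, had R3 at -2.20 and the other 8 pools between -0.60 and 0.78, and gave -0.34 ± 0.72. Of the delta-2 members, Pcdh8 (paraxial protocadherin) gave 0.085 ± 0.161 and Pcdh10 gave -0.19 ± 0.27. For Pcdh10, array 15, which set M1 against C3, gave a ratio of -2.793, and these pools were at -0.53 and 0.68. All other Pcdh10 ratios lay between -0.33 and 0.175. Pcdh17, a synaptic member in later life, gave -0.33 ± 0.55. Pcdh18 gave -0.39 ± 0.40, with C3 at 1.39 and the other 8 pools between -0.48 and 0.16. The second probes of Pcdh7 and Pcdh8 had too few values to be tested.

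Pcdh12, known from endothelium, gave 0.046 ± 0.242 (SE) for rostral minus caudal. Pcdh15, a tip-link protein of inner-ear hair cells, gave 0.45 ± 0.30, with R2 at 0.79 and C1 at -0.73. Rostral and caudal pools of both genes overlapped. Of 10 listed endothelial markers all 10 were measured, and 3 were higher and 7 lower in rostral than in caudal cortex, with a median of -0.076, and 0 had an unadjusted limma p under 0.05 there. In rostral against middle 1 had, Cldn5, a tight-junction protein of vessels, at -0.22 ± 0.07 (limma unadjusted p = 0.013).

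The clustered protocadherins were represented by 18 genes, 13 of them tested: 3 alpha, 9 beta and 1 gamma. In rostral against caudal, 9 of the 13 were higher, with a median difference of 0.21, beside 50.4% higher and a median of 0.00 over all features. The 3 alpha genes were all higher rostrally, and 5 of the 9 beta genes were. Members of a cluster are close in sequence, and whether a probe tells them apart was not tested, so their values may not be independent.

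Pcdhga12, the gamma member, had rostral pools at 0.071, 0.23 and -0.018, middle pools at 0.0093, 0.092 and 0.19, and caudal pools at -0.056, -0.22 and -0.30. Rostral and middle pools all lay above the caudal pools. Rostral minus caudal was 0.28 ± 0.09 (SE; limma unadjusted p = 0.018, adjusted p = 0.44), and middle minus caudal was 0.29 ± 0.09 (SE; limma unadjusted p = 0.017, adjusted p = 0.79). The rostral minus middle difference was -0.0033. It had values on 16 arrays, and only 4 of the 6 rostral and caudal arrays gave a ratio. All 4 were positive, from 0.17 to 0.46 with the rostral pool in Cy3 but a single 0.011 with it in Cy5. Without array 18 the 2 differences were 0.18 and 0.23 (limma unadjusted p = 0.33 and 0.21).

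Pcdha7 had the largest positive rostral minus caudal difference of the family, 0.78 ± 0.31 (SE; limma unadjusted p = 0.039, adjusted p = 0.58). Its rostral pools were at 0.69, 0.62 and -0.21 and its caudal pools at -0.61, 0.13 and -0.77, so the groups overlapped. It had values on 14 arrays, and without array 12, which set R1 against C3, the difference was -0.067. The other alpha genes, Pcdha5 and Pcdha6, gave 0.30 ± 0.31 and 0.21 ± 0.14, and the rostral pools of Pcdha6, at 0.10, 0.19 and 0.21, lay above its middle pools.

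Among the beta genes, rostral minus caudal ran from -0.17 ± 0.32 (SE) for Pcdhb15 to 0.60 ± 0.48 for Pcdhb2. For Pcdhb2, array 3, which set R1 against M3, gave a ratio of 5.608, and these pools were at 1.34 and -1.06. Its direct rostral over caudal ratios were positive on 4 of 6 arrays, from -0.46 to 1.59. Pcdhb1, the beta gene with the least spread between arrays, gave -0.010 ± 0.115. Pcdhb7 gave 0.26 ± 0.12, with an interval of -0.011 to 0.53 (limma unadjusted p = 0.058), and Pcdhb4 gave 0.22 ± 0.17. The other 4 beta genes tested, Pcdhb10, Pcdhb18, Pcdhb20 and Pcdhb21, gave -0.072 to 0.056, with errors of 0.40 to 0.51. Every Pcdhb18 ratio had the Cy5 pool lower, from -4.32 to -0.38, whichever region was in Cy5. Its dye term, -2.49, was the lowest of the tested genes of the family. No beta gene had an unadjusted p under 0.05 in any comparison.

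How precisely a gene was measured differed widely between the subfamilies. After the pool and dye terms, the median residual SD between arrays was 0.12 for the 16 cadherins, 0.80 for the 8 single protocadherins and 0.61 for the 13 clustered ones, beside 0.26 over all features. The median SE of rostral minus caudal was 0.089 for the cadherins and 0.31 for the 21 protocadherins. Values on all 18 arrays were present for 13 of the 16 cadherins and 9 of the 21 protocadherins. The probe set differed as well: 21 of the 37 genes stood on probes of the base set and 16 on probes whose name marks an extension set. Over all features the extension probes had a median residual SD of 0.40 and the base probes 0.15, and among the 37 genes these were 0.76 and 0.17.

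**Figure D4:**
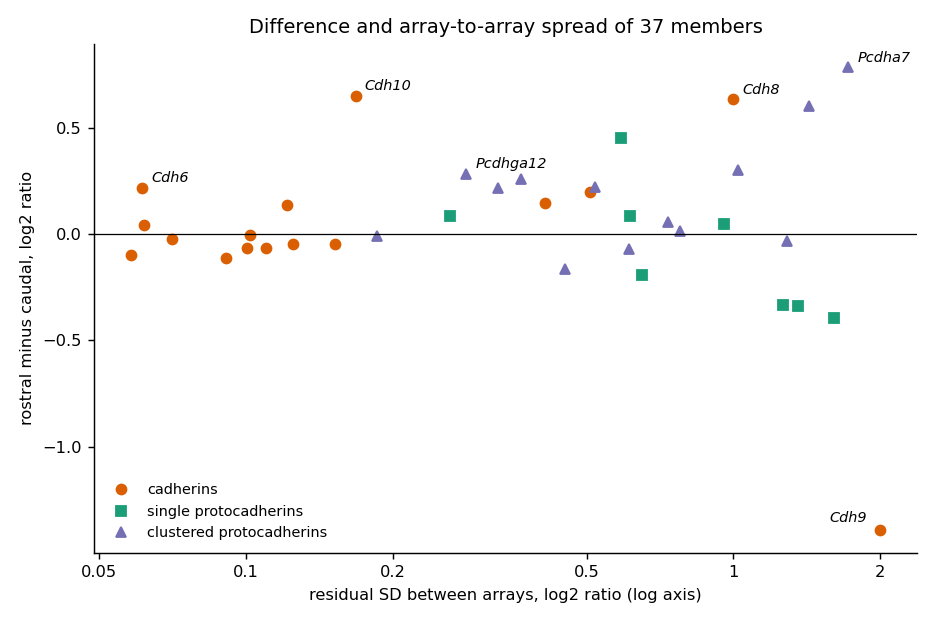
Rostral minus caudal difference (log2) against the residual SD between arrays (log axis) for the 37 tested genes; circles are cadherins, squares single protocadherins and triangles clustered protocadherins. Cdh10 and Cdh6 lie above 0 at a low spread (0.17 and 0.061), whereas Cdh8, Pcdha7 and Cdh9 lie far from 0 at spreads of 0.998, 1.72 and 1.99.

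The 9 genes that could not be tested had values on 5 to 12 arrays and on fewer than 2 arrays of at least 1 pool. Cdh1, the E-cadherin of epithelia, had 9 values, 8 of them between -0.77 and 0.60 and a single ratio of 4.08. Epithelial markers were measured for 4 of 6 genes, 3 higher and 1 lower rostrally, with 0 at an unadjusted p under 0.05. Cdh23, the tip-link partner of Pcdh15, had 7 values from -4.83 to -0.67, all with the Cy5 pool lower, whichever region was in Cy5. Cdh24, Pcdh1 and the beta genes Pcdhb3, Pcdhb8, Pcdhb13, Pcdhb16 and Pcdhb22 had 12, 8, 9, 12, 5, 11 and 11 values. Pcdh19 was not among the genes found.

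Partners of the cadherins were read from a list of catenins, nectins and regulators, of which 20 of 25 symbols were measured. Mllt4, Pvrl1, Pvrl2 and Pvrl3 in the list are older names of Afdn, Nectin1, Nectin2 and Nectin3, which were measured. The only listed gene not measured was therefore Ctnna3. In rostral against caudal 11 were higher and 9 lower, with a median of 0.071, and 0 passed an adjusted p of 0.05. Of the catenins, Ctnnb1, beta-catenin, gave -0.0034 ± 0.051 (SE). The alpha-catenins Ctnna1 and Ctnna2 gave 0.083 ± 0.050 and -0.031 ± 0.073, and the 3 rostral pools of Ctnna1 lay above its other 6 pools. The p120 relatives Ctnnd1 and Ctnnd2 gave -0.11 ± 0.06 and 0.12 ± 0.09, and Jup, plakoglobin, gave -0.45 ± 0.23. The 3 rostral pools of Ctnnd1 lay below its 3 caudal pools. At an unadjusted limma p under 0.05, 3 of the 20 partners were higher rostrally and 0 lower, beside 7.9% of all features in either direction. Arvcf, a catenin of the p120 family, gave 0.18 ± 0.06 (limma unadjusted p = 0.016), and Afdn, afadin, which links nectins to actin, gave 0.16 ± 0.06 (limma unadjusted p = 0.040). Nectin3, an adhesion molecule of the immunoglobulin family, gave 0.91 ± 0.24 (limma unadjusted p = 0.0059, adjusted p = 0.31), with a residual SD between arrays of 1.33.

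A further list held 25 genes outside the naming rule, members of the cadherin superfamily and Fjx1, which is not a cadherin. Of the 25 genes, 15 were measured, Fjx1 among them, 6 higher and 9 lower rostrally. Their rostral minus caudal differences ran from -0.57 ± 0.37 (SE) for Celsr3 to 0.18 ± 0.13 for Dchs1, a ligand of the Fat cadherins, with a median of -0.015. Of the 15, 0 had an unadjusted p under 0.05 in any pair of regions. Celsr2, a seven-pass cadherin, gave -0.012 ± 0.064.

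Markers of the meninges and mesenchyme, cells that border the cortex, were mostly higher caudally. Of 12 listed 10 were measured, 9 lower and 1 higher rostrally. Of the 10, 5 were lower at an unadjusted limma p under 0.05, beside 7.9% of all features in either direction, and 0 passed after adjustment. Their median over genes lay between -0.11 and 0.012 in the rostral pools, between -0.051 and 0.0074 in the middle pools and between 0.0078 and 0.12 in the caudal pools. This is opposite in sign to the differences of Cdh10, Cdh6 and Pcdhga12, and its part in them was not tested. Of 10 neuron genes 5 were higher and 5 lower rostrally. At an unadjusted limma p under 0.05, 2 of them were higher and 2 lower, and 0 passed after adjustment. Of 8 radial glia genes 5 were higher and 3 lower, and 1 passed after adjustment, Vim, at -0.51 ± 0.05 (SE; limma adjusted p = 0.039). Of 4 cortex identity genes 3 were measured, all lower rostrally, with a median of -0.25, and Emx2 and Lhx2 had an unadjusted limma p under 0.05. Emx2, and Pax6 of the radial glia list, were also used to read the direction of the ratio. Their signs are therefore not separate results.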

How the data were processed

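Each of the 18 arrays compared 2 of the 9 pools in 2 dyes. The authors deposited 1 log2 ratio per probe and array. Its base was read from the values. Not given in the sources used here are the scanner, background correction, filters and normalization. Capped ratios (1477, at log2 of 1e+05) were set to missing, arrays were centred on their median (between -0.09 and 0.61), and 232 Gapdh control spots were left out. A feature was tested with 12 or more arrays in all and 2 or more for every pool. Pool values came from least squares per feature, with a dye term, and limma 3.58.1 (R 4.3.3; lmFit, eBayes) was fitted to the 9 pool values of all 18525 features, with Benjamini-Hochberg adjustment and two-sided tests; 6 residual degrees of freedom remained. The script was tested on simulated data. The genes, lists and tests were chosen with earlier results of these data known. Genes were named with values where their unadjusted p was under 0.05 in any pair of regions, where textbooks know them from cortex or another cell type, or where they were the lowest or highest of a subfamily; others are named only to account for every gene. Alternatives left out each pool and each array and changed the centring, filter, dye term, scale, variance model, blocks, unit of the fit and probe.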

Additional observations from a re-analysis of the deposited data

How the results depend on the processing

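No tested gene of the family passed an adjusted p of 0.05 under any alternative run except the limma fit on the arrays, which counts arrays that share pools as samples: there 2 passed in rostral against caudal, 1 in rostral against middle and 2 in the F test, with 8, 6, 4 and 7 at an unadjusted p under 0.05 in the order rostral to caudal, rostral to middle, middle to caudal and F test, where the reported fit had 4, 1, 2 and 3. Leaving out a pool gave 1 to 5, 0 to 2, 0 to 2 and 1 to 3 genes in that order, and leaving out an array 2 to 7, 1 to 2, 0 to 2 and 1 to 4. With only features on all 18 arrays, 2, 0 and 1 genes were left in rostral against caudal, middle against caudal and the F test, as fewer genes were tested. Rostral against middle held 2 genes without centring, 2 with the sets R1 M2 C3 and so on as a block, and 3 from the direct arrays only, where middle against caudal held 4. With the Gapdh spots as a covariate, an alternative chosen after seeing the data, rostral against middle held 3 genes and the F test 5. The cause of these moves was not tested.

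Over 41 alternatives the Cdh10 rostral minus caudal difference ran from 0.52 to 0.75 and kept an unadjusted p under 0.05 in 40, all but the second probe. Cdh6 ran from 0.14 to 0.32 and kept it in 35. It lost it without R1, R2, M2 or C1 (limma unadjusted p = 0.055, 0.096, 0.058 and 0.097), without centring, and with R1 M2 C3 and so on as a block (limma unadjusted p = 0.068). Cdh9 in middle against caudal ran from -3.38 to -0.78 and kept it in 25 of 35. Pcdhga12 ran from 0.16 to 0.37 in rostral against caudal and kept it in 31 of 39, and in middle against caudal in 33 of 39. Its losses in rostral against caudal were without R2, R3, C1 or C3 (limma unadjusted p = 0.068, 0.12, 0.052 and 0.093) or array 18, without centring, on the direct arrays only and with the Gapdh covariate. In rostral against middle Cdh10 kept it in 37 of 41. Among its 4 losses were those without R3 or M2 (limma unadjusted p = 0.10 and 0.076) and the second probe (limma unadjusted p = 0.15). Without C3 the Pcdha7 rostral minus caudal difference was 0.11. Pcdha7 kept it in 17 of 31 and turned sign without array 12 (-0.067). Without centring, the median over all features was -0.069, 0.10 and -0.17 for the 3 pairs.

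Pools of the same number never met on an array, and their deviations correlated at -0.43 to -0.057 across features. The deviations come from a fit to ratios with other pools, which can itself tie them. Whether the numbers pair the pools therefore cannot be told from this. With the pool number as a replicate block, the F test held 1 gene in place of 3, and the other counts stayed within 1.5 times. The number of arrays limits the precision.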
